A study of Homo sapiens with 20 samples.

Results

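Peaks of BMAL1 and HIF2α were collected around CCND1 and across the span from MYC to PVT1, 2 loci at which distal elements carry HIF in renal carcinoma. Every peak that overlapped the gene body of CCND1, or the span from MYC to PVT1, with 300 kb added to either side was taken. This gave 36 of the 12171 peaks in 4 lists, 4 in the CCND1 window and 32 in the MYC-PVT1 window. Merging overlapping peaks across lists left 20 sites, 3 around CCND1 and 17 around MYC and PVT1.

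CCND1 encodes cyclin D1, which activates the cyclin-dependent kinases that carry a cell from G1 into S phase. MYC encodes a transcription factor that drives growth and proliferation, and PVT1 is a long non-coding RNA gene that follows MYC on the same strand and whose body is known to hold enhancers that contact MYC. HIF2α accumulates when VHL is lost, binds with ARNT to the hypoxia response element (HRE), and acts in clear cell renal cell carcinoma (ccRCC) often from sites far from promoters. Inherited susceptibility to renal cancer maps to the region of CCND1 and to that of MYC and PVT1. BMAL1 is the clock transcription factor that pairs with CLOCK at E-boxes.

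The cells were A498, a human kidney cancer line, infected with lentivirus carrying an shRNA in a pLKO.1 vector and selected in puromycin. The shCNT cells, labelled WT, received a scrambled shRNA and the shBMAL1 cells, labelled BMAL1 knockdown, an shRNA against BMAL1; each CUT&RUN reaction used 100000 cells and an antibody to BMAL1, to HIF2α or a rabbit IgG. CUT&RUN maps a chromatin protein by cutting out and sequencing the DNA next to the bound antibody. The 20 libraries formed 6 groups, 4 libraries for each BMAL1 or HIF2α group and 2 for each IgG group, and 1 peak list was analysed for each of the 4 antibody groups. No list had a replicate, so differences between lists could not be set against replicate spread, and no p-value is given for them. The lists held 2350 and 4261 BMAL1 peaks and 2361 and 3199 HIF2α peaks, shCNT first. The BMAL1 list labelled shBMAL1 was thus the longer one; no expression value of BMAL1 was analysed here, and shBMAL1 below names the label.

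The 3 CCND1 sites are shown first, and all 3 held an HRE core. The upstream site had HIF2α peaks and no BMAL1 peak. The others had a BMAL1 peak, under shBMAL1 alone, and no HIF2α peak. Such a lack of overlap was common in the lists. Within a shRNA, 25.0% and 21.2% of BMAL1 peaks and 24.9% and 28.4% of HIF2α peaks overlapped one of the other antibody, shCNT first. Sequences are the plus strand of GRCh37 on chromosome 11, read from the reference genome. The upstream site (69234395 to 69234694, 300 bases centred on the shCNT HIF2α summit) has in capitals its matches to TACGTG, an extended form of the HRE core. The site just past the gene (69469529 to 69469651, the whole peak of 123 bases) and the downstream site (69706312 to 69706611, 300 bases) have in capitals the GCGTG form of the core, which reads CACGC where it lies on the minus strand.
CCND1 upstream HIF2α site: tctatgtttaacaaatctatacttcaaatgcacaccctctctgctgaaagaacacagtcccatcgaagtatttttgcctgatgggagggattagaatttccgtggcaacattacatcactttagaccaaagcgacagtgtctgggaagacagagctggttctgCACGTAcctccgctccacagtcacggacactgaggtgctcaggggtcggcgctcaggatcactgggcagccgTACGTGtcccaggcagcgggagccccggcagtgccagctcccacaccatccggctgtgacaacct
CCND1 gene-end BMAL1 site: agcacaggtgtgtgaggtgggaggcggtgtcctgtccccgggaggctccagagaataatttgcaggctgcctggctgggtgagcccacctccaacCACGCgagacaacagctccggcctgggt
CCND1 downstream BMAL1 site: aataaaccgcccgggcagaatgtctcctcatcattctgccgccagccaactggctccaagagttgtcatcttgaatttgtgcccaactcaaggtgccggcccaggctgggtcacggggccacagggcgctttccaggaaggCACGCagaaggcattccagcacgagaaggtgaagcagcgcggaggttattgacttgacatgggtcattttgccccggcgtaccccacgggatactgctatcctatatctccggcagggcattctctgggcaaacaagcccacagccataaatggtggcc

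In the upstream site the first match, CACGTA at 69234558 to 69234563, is TACGTG on the minus strand, and its core lay 15 bp from the shCNT summit. The second, TACGTG at 69234630 to 69234635, lies on the plus strand with its core 88 bp from that summit. No match to the E-box CACGTG, to the AP-1 site (TGAGTCA or TGACTCA), to the RUNX site AACCACA or to the HNF1 palindrome was found in any of the 3 sequences. A match is a description of the letters and not a measured contact. TACGTG was present in 25.3% of the 200 bp summit windows of the shCNT HIF2α list and 20.4% of the shBMAL1 HIF2α list, against 1.80% and 1.99% of windows 2 kb to either side. In the BMAL1 lists it was present in 2.21% (shCNT) and 2.86% (shBMAL1).

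The CCND1 window ran from 69155924 to 69769242 on chromosome 11, around a gene body at 69455924 to 69469242. It held 1 peak in each HIF2α list, 2 peaks in the shBMAL1 BMAL1 list and none in the shCNT BMAL1 list. No peak of any list lay at the CCND1 promoter. The densities were 1.63 peaks per Mb for HIF2α under either shRNA and 3.26 per Mb for BMAL1 under shBMAL1. Over windows built the same way around 20136 protein-coding genes, 66.0% and 59.1% had a HIF2α density at or below that of CCND1 (shCNT, then shBMAL1), and 66.1% had a shBMAL1 BMAL1 density at or below it. The absence of a shCNT BMAL1 peak was shared by 49.9% of these gene windows. CCND1 therefore did not stand out from other genes in its number of peaks.

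The HIF2α site lay in intergenic DNA 221 kb upstream of the CCND1 start, and the nearest annotated start was that of the non-coding gene LINC02956, 5470 bp away; the nearest protein-coding start was that of MYEOV, 82417 bp away. Under shCNT the peak spanned 69234404 to 69235496 (1093 bp), with a pileup of 20 fragments at the summit and a −log10 p of 34.1. The peak caller's fold, which adds 1 to both pileup and local background before dividing, was 17.4. It ranked 149 of 2361, in percentile 93.6 of its list, the highest percentile of any HIF2α peak of either window. Under shBMAL1 the peak spanned 69234443 to 69234999 (557 bp), with a pileup of 10, a fold of 9.33, a −log10 p of 15.9 and rank 503 of 3199, percentile 84.1. The 2 summits were 19 bp apart, so the same element was recovered in both lists. Neither BMAL1 list had a peak there.

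The pileup was 20 fragments under shCNT and 10 under shBMAL1, but the shBMAL1 list was also shallower. Its genome-wide background was 0.109 fragments per position against 0.209 in the shCNT list. Divided by those backgrounds, the pileup at the CCND1 upstream site was 95.7 under shCNT and 91.4 under shBMAL1, a ratio of 0.954 with a 95% interval of 0.399 to 2.14. Here and below, intervals of ratios come from the binomial distribution of the 2 pileups and cover counting error only, not the spread between cultures. Among the 1318 HIF2α peaks shared between the shRNAs the median ratio was 1.53, and 9.52% of them had a ratio at or below that of the CCND1 site. Relative to that median the CCND1 ratio was 0.625, with an interval of 0.261 to 1.40 that includes 1. A change in HIF2α occupancy of this element was thus not detectable at this depth.

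Both BMAL1 sites of the CCND1 window were found in the shBMAL1 list alone. The gene-end site at 69469529 to 69469651, 13.7 kb from the CCND1 start and just past the last base of the gene, fell in an intron of the neighbouring gene LTO1. Its pileup was 3, the smallest called in that list, and it ranked 4053 of 4261 (percentile 3.92). The downstream site at 69706400 to 69706786 was intergenic, 251 kb from the CCND1 start and 72278 bp from that of FGF3, which encodes a fibroblast growth factor. Its pileup was 7, its fold 7.30 and its rank 761 of 4261 (percentile 81.8). A GCGTG core lay 7 bp from its summit, within the sequence shown above, and a core lay 36 bp from the summit of the gene-end site. GCGTG or ACGTG is a short motif, present in 38.4% of summit windows of that list and in 25.5% of the windows 2 kb away.

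**Figure D1:**
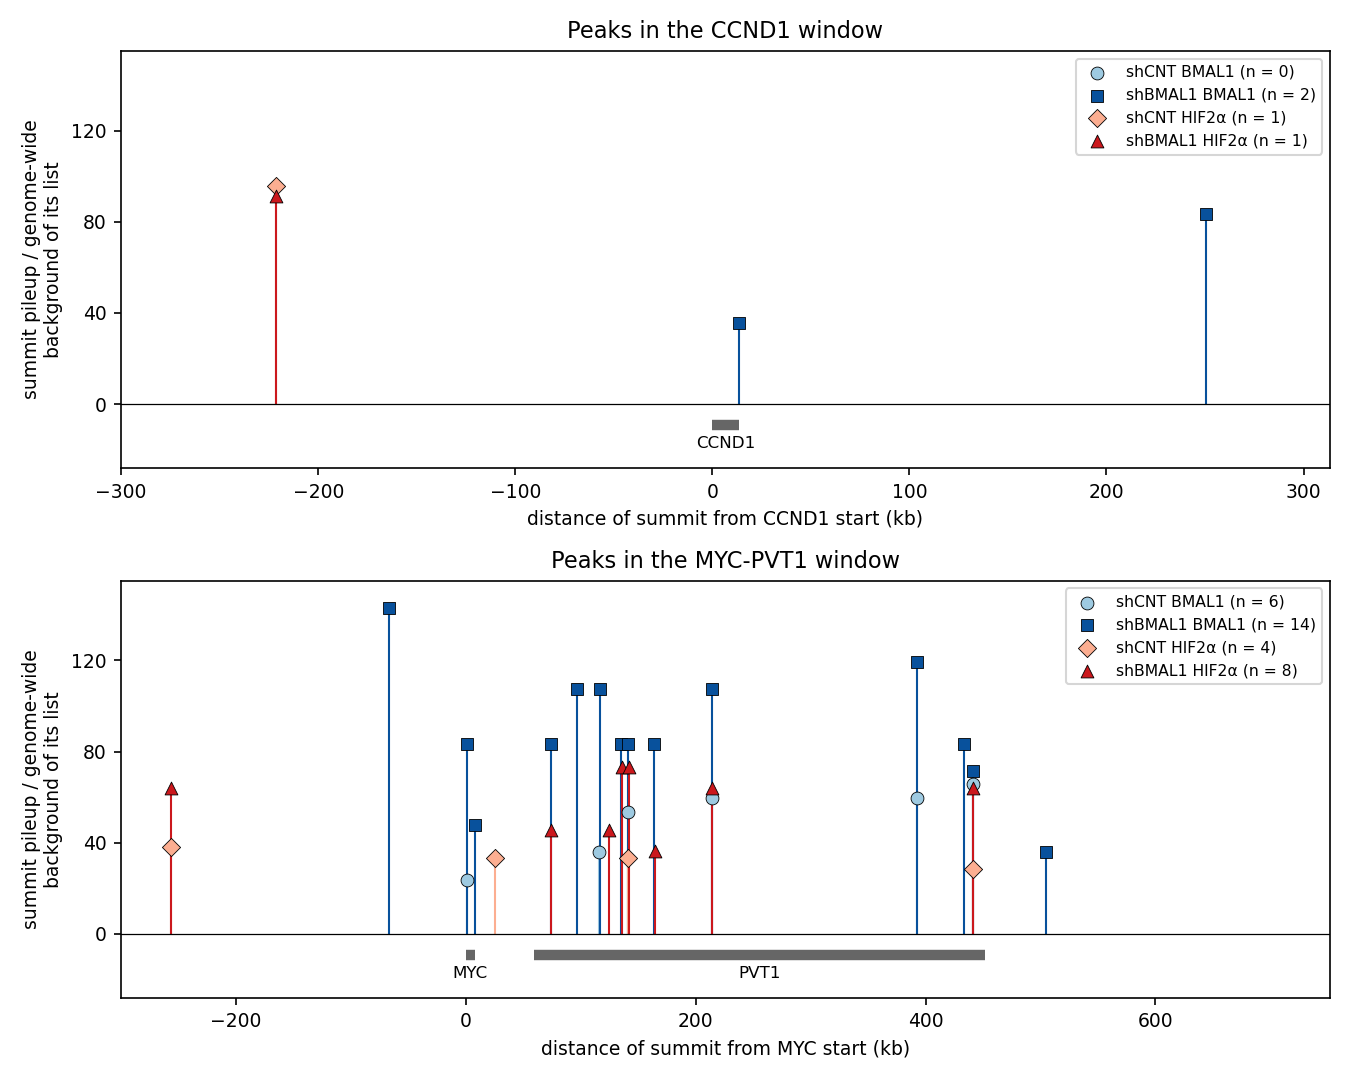
Summit pileup divided by the genome-wide background of its list (no unit) for each of the 36 peaks, against the distance of the summit from the start of CCND1 (top) or MYC (bottom) in kb; colours and markers give the 4 lists and grey bars the genes. Around CCND1 the HIF2α peaks of both shRNAs coincide 221 kb upstream, whereas around MYC most peaks stand over PVT1.

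The MYC-PVT1 window ran from 128447680 to 129499347 on chromosome 8. MYC lies at 128747680 to 128755197 and PVT1 at 128806772 to 129199347, both on the plus strand and 51.6 kb apart. The window held 6 shCNT and 14 shBMAL1 BMAL1 peaks, and 4 shCNT and 8 shBMAL1 HIF2α peaks. BMAL1 density was 5.71 and 13.3 peaks per Mb, 7.52 and 9.67 times that of the whole lists. HIF2α density was 3.80 and 7.61 per Mb, 4.99 and 7.36 times that of the whole lists. Of the windows around protein-coding genes, 87.9% and 95.7% had a lower BMAL1 density and 84.3% and 92.5% a lower HIF2α density, shCNT first in each pair. The MYC-PVT1 span was thus among the denser windows in all 4 lists, whereas CCND1 was not. The windows compared with it were each built on a single gene, whereas this one runs over both MYC and PVT1.

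Most of these peaks were inside PVT1. The gene covered 37.3% of the window and held 11 of the 17 sites (64.7%) and 24 of the 32 peaks. For BMAL1, 5 of 6 (shCNT) and 10 of 14 (shBMAL1) peaks were in PVT1, and for HIF2α 2 of 4 and 7 of 8. All but 1 of the summits fell in introns; the summit of the shBMAL1 BMAL1 peak 117 kb past the MYC start fell in an exon. Neighbouring PVT1 sites were between 5.91 and 178 kb apart, with a median of 21.1 kb. The widest gap divided 8 sites in the first part of the gene, 74.3 to 214 kb from the MYC start, from 3 sites near its end, 393 to 441 kb from it.

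Few members lay at promoters. Of the 36 peaks, 2 had a summit within 1 kb of an annotated transcript start, both at MYC. In the BMAL1 lists as a whole 49.6% (shCNT) and 38.8% (shBMAL1) of peaks did, and in the HIF2α lists 46.5% and 37.3%. The MYC promoter site had a peak in both BMAL1 lists and in no HIF2α list. Its shBMAL1 peak (128748265 to 128748583) had a pileup of 7 and percentile 57.2, and its summit, 0.608 kb past the first base of the gene, was 4 bp from a MYC transcript start. Its shCNT peak (128748558 to 128748759) had a pileup of 4, the smallest called in that list, and percentile 0.553. The summits were 341 bp apart and both fell in MYC exon sequence, inside CASC11, a non-coding gene that overlaps the MYC start.

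Sites were then followed across antibody and shRNA. Of the 17 MYC-PVT1 sites, 7 were in 1 list, 7 in 2 lists, 1 in 3 lists and 2 in all 4. BMAL1 was found at 14 sites, of which 6 were in both BMAL1 lists, 8 in the shBMAL1 list alone and 0 in the shCNT list alone. HIF2α was found at 9 sites, of which 3 were in both HIF2α lists, 5 in the shBMAL1 list alone and 1 in the shCNT list alone. In the whole lists 47.1% of shCNT but 26.1% of shBMAL1 BMAL1 peaks overlapped a peak of the other shRNA. For HIF2α the shares were 55.8% and 41.2%. Both antibodies were found at 6 of the 17 sites, all 6 inside PVT1, and at 0 of the 3 CCND1 sites.

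**Figure D2:**
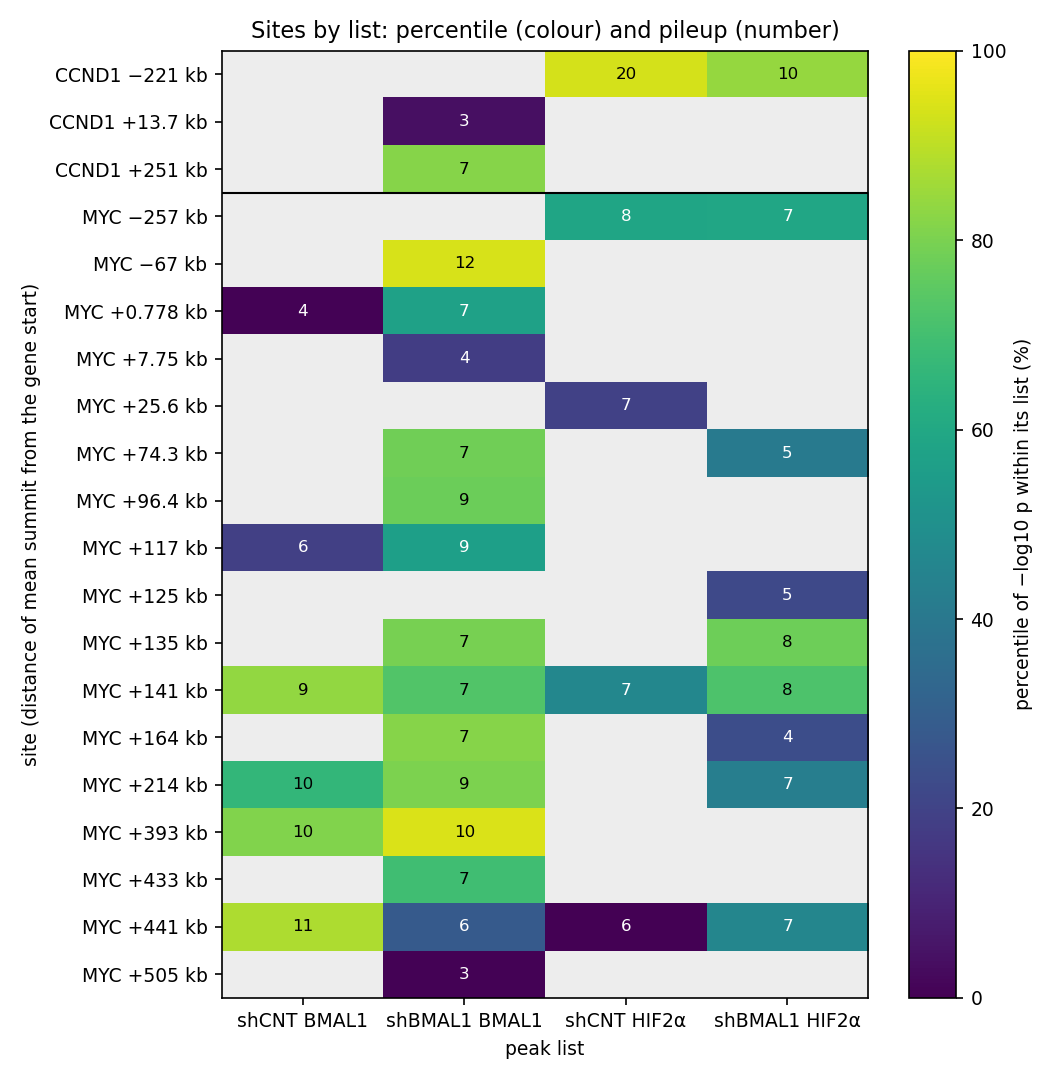
Presence of the 20 sites (vertical axis, by distance of the mean summit from the start of CCND1 or MYC) in the 4 peak lists (horizontal axis). Colour gives the percentile of −log10 p within the list in percent, the number in each cell is the summit pileup in fragments, and grey cells have no called peak. The sites 141 and 441 kb past the MYC start are filled in all 4 lists and the CCND1 upstream site in both HIF2α lists.

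The 2 sites found in all 4 lists were intronic in PVT1. The first, at 128888422 to 128889329 and 141 kb past the MYC start, had BMAL1 pileups of 9 (shCNT) and 7 (shBMAL1) and HIF2α pileups of 7 and 8. Its percentiles were 83.7 and 72.7 in the BMAL1 lists and 46.5 and 72.2 in the HIF2α lists. The 2 HIF2α summits were 599 bp apart and the 2 BMAL1 summits 137 bp apart. The shCNT BMAL1 summit lay 51 bp from that of shBMAL1 HIF2α, and the shCNT HIF2α summit stood apart from the rest. An HRE core lay at the summit of the shBMAL1 HIF2α peak (0 bp). Another core lay 80 bp from the shCNT HIF2α summit, beside which an AACCACA match was also found. The second, at 129188783 to 129189249 and 441 kb past the MYC start, had its 4 summits within 88 bp. Its BMAL1 pileups were 11 and 6 and its HIF2α pileups 6 and 7. It ranked 286 of 2350 in shCNT BMAL1 (percentile 87.9) but 2359 of 2361 in shCNT HIF2α (percentile 0.0847), at the very limit of calling. None of the 6 motifs searched was found there.

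A further PVT1 site, at 128961875 to 128962414 and 214 kb past the MYC start, was in both BMAL1 lists and the shBMAL1 HIF2α list. Its pileups were 10 and 9 for BMAL1, with summits 8 bp apart, and 7 for HIF2α. The nearest annotated start, about 1.1 kb away, was that of the non-coding gene LINC02912, and no motif searched was found. Another 3 PVT1 sites carried BMAL1 and HIF2α together under shBMAL1 alone, at 74.3, 135 and 164 kb past the MYC start. Their BMAL1 pileup was 7 at each, with percentiles of 78.4, 79.5 and 81.8. Their HIF2α pileups were 5, 8 and 4, with percentiles of 41.0, 77.8 and 23.5. The BMAL1 peak was thus placed higher in its list than the HIF2α peak at each of the 3. An HRE core lay 48 bp from the HIF2α summit at 135 kb, and the site at 164 kb had 2 AP-1 matches and an HRE core within 100 bp of its BMAL1 summit.

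BMAL1 without HIF2α was found in both shRNAs at the MYC promoter and at 2 PVT1 sites. The PVT1 site 393 kb past the MYC start (129140151 to 129140358) had a pileup of 10 in both lists, summits 12 bp apart and an AACCACA match in each. Its shBMAL1 peak ranked 228 of 4261 (percentile 94.4), the highest percentile among all 36 peaks, and its shCNT peak was in percentile 80.9. The PVT1 site 117 kb past the MYC start had pileups of 6 and 9 and summits 620 bp apart, and an AP-1 match lay beside the shCNT summit.

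The other 5 BMAL1 sites were in the shBMAL1 list alone. The highest of these lay 67.0 kb upstream of MYC (128680352 to 128681214), in an intron of the unnamed gene ENSG00000286010, with a pileup of 12, the largest of any BMAL1 peak in the 2 windows, and rank 251 of 4261. The sites 96.4 and 433 kb past the MYC start, both in PVT1 introns, had pileups of 9 and 7. The sites 7.75 and 505 kb past the MYC start were intergenic, lay to either side of PVT1, and had pileups of 4 and 3 and an AP-1 match each. The last 2 were in percentiles 18.1 and 0.493 of their list.

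HIF2α without BMAL1 was found at 3 MYC-PVT1 sites, and at 1 of them in both shRNAs. That site, 257 kb upstream of MYC in an intron of the non-coding gene CASC8 (128490667 to 128491153), had pileups of 8 and 7, summits 39 bp apart and percentiles of 58.8 and 59.2. Its place in the list was nearly the same under both shRNAs. An HRE core lay 73 bp from the shBMAL1 summit. None lay within 100 bp of the shCNT summit, but each whole peak held 1. The site 25.6 kb past the MYC start, between MYC and PVT1, was in the shCNT list alone with a pileup of 7 (percentile 19.2). The PVT1 site 124.7 kb past the MYC start was in the shBMAL1 list alone with a pileup of 5 (percentile 22.0). No HIF2α peak of the MYC-PVT1 window reached the pileup or the percentile of the CCND1 upstream site in its own list.

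The overlap of the members between shRNAs was read against the lists they came from. All 6 shCNT BMAL1 members were overlapped by a shBMAL1 BMAL1 peak (Wilson 95% interval 61.0 to 100%), against 47.1% of the whole list. In the other direction 6 of 16 were (18.5 to 61.4%), against 26.1%. For HIF2α, 4 of 5 shCNT members had a shBMAL1 peak (37.6 to 96.4%), against 55.8%, and 4 of 9 shBMAL1 members had a shCNT peak (18.9 to 73.3%), against 41.2%. These intervals, like the others, cover counting error only. The interval of the shCNT BMAL1 members lay above its list's share and the other 3 included theirs. It did not with summits required within 200 bp, where 4 of 6 members (30.0 to 90.3%) and 38.8% of the list were shared, nor at a −log10 p of at least 8, with 3 of 4 (30.1 to 95.4%) and 45.0%.

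Overlap between antibodies within a shRNA was read in the same way. Of the shCNT BMAL1 members, 2 of 6 had a HIF2α peak (9.68 to 70.0%), against 25.0% of that list, and 6 of 16 shBMAL1 BMAL1 members did (18.5 to 61.4%), against 21.2%. Of the shCNT HIF2α members, 2 of 5 had a BMAL1 peak (11.8 to 76.9%), against 24.9%. Of the shBMAL1 HIF2α members, 6 of 9 had one (35.4 to 87.9%), against 28.4%, and all 6 were in PVT1, whose window held 8 of the 9. The interval of the shBMAL1 HIF2α members lay above its list's share, but not at a −log10 p of at least 8, where 2 of 5 (11.8 to 76.9%) and 21.6% of the list had a BMAL1 peak. The other 3 intervals included their lists' shares. Members of 1 window are neighbours and are not independent of each other. At the sites 74.3, 135, 141 and 164 kb past the MYC start, the local background over the genome-wide one was the same for both antibodies under shBMAL1 to 3 digits, at 1.64, 1.55, 1.96 and 1.15. At the other 2 sites with both antibodies it was 3.27 for BMAL1 and 4.09 for HIF2α (214 kb) and 4.09 and 3.27 (441 kb). The BMAL1 and HIF2α lists of a shRNA may rest on the same control reads, and the part of that in the overlap was not tested.

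The sites in both lists of an antibody allowed pileups to be compared between shRNAs after division by background. For BMAL1 the ratio of shBMAL1 to shCNT was highest at the MYC promoter, at 3.50 (0.890 to 16.3), and 3.00 (0.953 to 10.2) at the PVT1 site 117 kb past the MYC start. It was 2.00 (0.747 to 5.35) at 393 kb, 1.80 (0.647 to 4.93) at 214 kb and 1.56 (0.492 to 4.69) at 141 kb. The lowest was 1.09 (0.331 to 3.22) at 441 kb. The pairs at the MYC promoter and at 117 kb had summits 341 and 620 bp apart, so their ratios compare different positions. Relative to the median of all shared BMAL1 peaks, a scaling chosen after seeing the data, the ratios ran from 1.75 at the MYC promoter to 0.545 at 441 kb, and 3 of the 6 fell below 1. Every interval included 1 and the median of 2.00 over all 1106 shared BMAL1 peaks, so a difference between the shRNAs was not detectable at any of these sites. For HIF2α the ratio was 1.67 (0.516 to 5.27) at the CASC8 site. At 141 kb, between summits 599 bp apart, it was 2.18 (0.691 to 7.07), and at 441 kb 2.23 (0.641 to 8.02). Relative to the HIF2α median these ratios were 1.09, 1.43 and 1.46. These were all above that of the CCND1 upstream site on either scale, but the intervals overlapped with it and with the HIF2α median of 1.53.

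**Figure D3:**
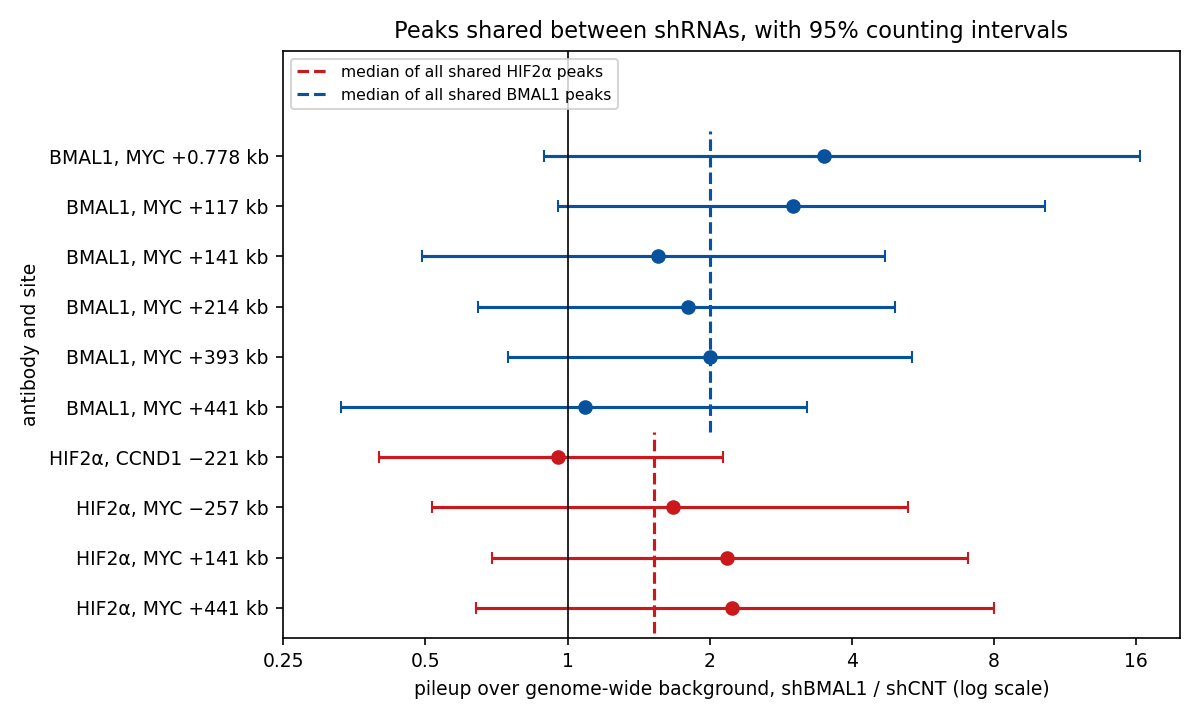
Ratio of pileup over genome-wide background, shBMAL1 to shCNT (horizontal log axis, no unit), for the 10 pairs of peaks of the 2 windows found at 1 site under both shRNAs with the same antibody. Bars are 95% counting intervals and dashed lines the medians of all shared peaks, 2.00 for BMAL1 and 1.53 for HIF2α. Every interval includes 1, and the CCND1 upstream site is the lowest of the 10. Each pileup is that at the peak's own summit, and the summits of a pair lie up to 620 bp apart.

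Whether a member missing from the other shRNA could have been called there depends on depth. The smallest pileup called was 4 under shCNT and 3 under shBMAL1, with either antibody. Scaled by background, all 10 BMAL1 and all 5 HIF2α members found under shBMAL1 alone would have passed the limit of the shCNT list, as would 100% of all such peaks in these lists. Background under shCNT was 2.00 (BMAL1) and 1.91 (HIF2α) times that under shBMAL1, so for peaks already called this outcome was fixed in advance. It does not show that these sites were absent under shCNT. With the site 67.0 kb upstream of MYC as an example, its pileup of 12 corresponds to 24.0 at shCNT depth, where 5 would have been called. The shCNT HIF2α peak between MYC and PVT1 would have come to 3.67, below the 5 needed, so on this scale it could not have been called under shBMAL1. Of all shCNT HIF2α peaks missing under shBMAL1, 35.6% were above the limit on this scale. The pileups were also scaled by the median of shared peaks, a choice made after seeing the data. Then 7 of the 10 BMAL1 members and all 5 HIF2α members passed, and so did the peak between MYC and PVT1. The 3 BMAL1 members that no longer passed were the CCND1 gene-end site and the sites 7.75 and 505 kb past the MYC start. Among all peaks missing from the other shRNA, 71.6% (shBMAL1 BMAL1), 75.1% (shBMAL1 HIF2α) and 95.01% (shCNT HIF2α) passed when scaled by shared peaks. The 7 of 10 BMAL1 members were thus close to the share of their list. An absent peak says only that the caller's limit was not met.

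The motifs of the members were set beside those of their lists. The E-box CACGTG was found in 0 of the 36 summit windows of 200 bp, and in no whole peak either. In the lists it was present in 11.1% and 4.32% of BMAL1 and 6.40% and 6.00% of HIF2α windows, shCNT first. The upper Wilson limits of 0 matches among the members were 39.0% and 19.4% for BMAL1 and 43.4% and 29.9% for HIF2α, above those shares. An HRE core, ACGTG or GCGTG on either strand, was found in 11 of the 36, and in all 4 CCND1 peaks. With whole peaks searched, 15 of the 36 held one. Of the BMAL1 members, 1 of 6 (shCNT, 3.01 to 56.4%) and 4 of 16 (shBMAL1, 10.2 to 49.5%) had a core, against 48.0% and 38.4% of the lists. Both intervals included these list shares. Of the MYC-PVT1 HIF2α peaks, 1 of 4 (shCNT) and 3 of 8 (shBMAL1) had a core. In the HIF2α lists the shares were 66.0% and 59.3%, and in the windows 2 kb away 25.6% and 24.9%. With the CCND1 peaks included, 2 of 5 (11.8 to 76.9%) and 4 of 9 (18.9 to 73.3%) HIF2α members had a core. Both intervals included the list shares. TACGTG was found in 2 of the 36, both at the CCND1 upstream site, and in 0 of the 32 MYC-PVT1 peaks. In the 200 bp windows AP-1 matches were found at 4 members, all BMAL1 peaks of MYC-PVT1. They were 1 of 6 shCNT (3.01 to 56.4%) and 3 of 16 shBMAL1 (6.59 to 43.0%) BMAL1 members, against 14.2% and 18.3% of the lists. For HIF2α, 0 of 5 and 0 of 9 members had a match (upper limits 43.4% and 29.9%), against 13.6% and 15.5% of the lists. Each interval included its list's share. Over whole peaks 7 members held an AP-1 match, among them the shBMAL1 HIF2α peak 164 kb past the MYC start. AACCACA was found in 4 windows and 5 whole peaks, and in 5.19% and 6.20% of the windows of the BMAL1 lists and 5.17% and 5.75% of those of the HIF2α lists.

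Local background was recovered for each peak, which the peak caller takes as the highest of several estimates around a peak. In the MYC-PVT1 window, 31 of the 32 peaks had a local background above the genome level. Its median over that level was 2.51 and 2.13 at the BMAL1 peaks and 2.16 and 2.21 at the HIF2α peaks, shCNT first, against 1.29, 1.15, 1.12 and 1.06 over the whole lists. The highest, 7.02, was at the shBMAL1 BMAL1 peak in the PVT1 exon. At the CCND1 upstream site it was 1.00 under shCNT and 1.64 under shBMAL1, and at both CCND1 BMAL1 sites 1.15. Background was recovered at called peaks only. It was raised at most MYC-PVT1 peaks, as was the peak density of that window, and the part of the background in the density was not tested. Because the limit is set against the local background, these 31 peaks needed as many or more fragments to be called than a peak at the genome level. Whether their pileups were raised together with the background was not tested.

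**Figure D4:**
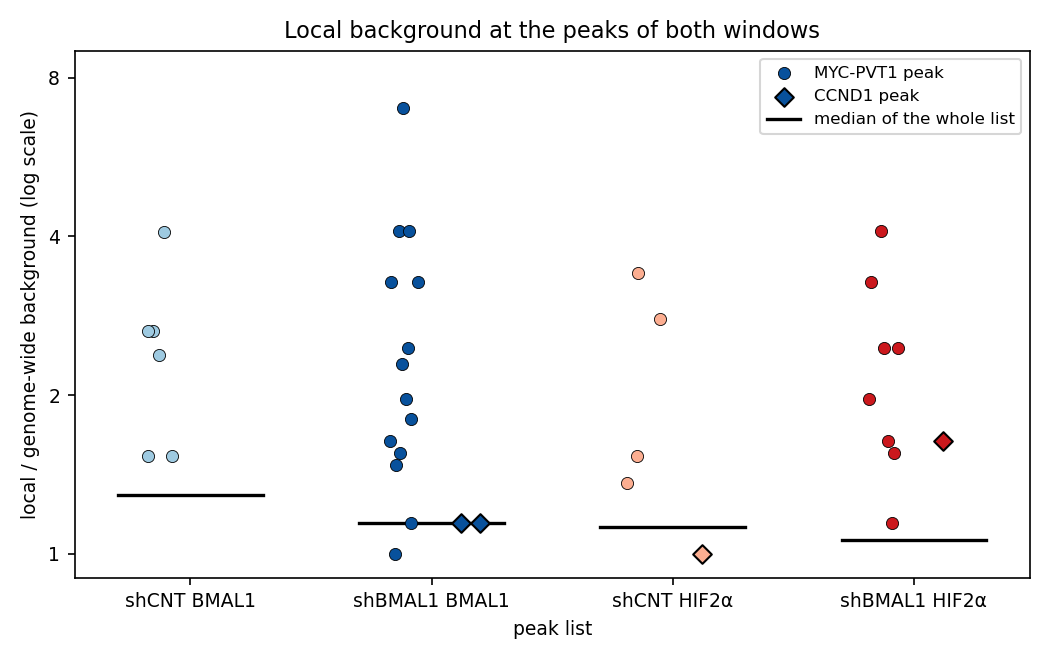
Local background at each peak divided by the genome-wide background of its list (vertical log axis, no unit), by list. Circles are MYC-PVT1 peaks, diamonds CCND1 peaks and horizontal lines the medians of the whole lists, from 1.06 to 1.29; nearly all circles lie above the lines.

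None of the 36 peaks was in the top 5% of its list. Their median percentile was 73.6 and 75.1 in the BMAL1 lists and 46.5 and 46.0 in the HIF2α lists, shCNT first, where the middle of a list is at 50 by construction. Most BMAL1 members were thus placed in the upper part of their lists, whereas HIF2α members ran from percentile 0.0847, at the PVT1 site 441 kb past the MYC start, to 93.6 at the CCND1 upstream site. The median pileup of members was 9.5 and 7 for BMAL1 against 6 and 5 over the lists, and 7 and 7 for HIF2α against 8 and 5.

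Windows of a single gene body and 300 kb to either side were counted around 18 other genes of the cell cycle and of the MYC network. These were the cyclins CCND2, CCND3 and CCNE1, the kinases CDK4 and CDK6, the kinase inhibitors CDKN1A, CDKN1B and CDKN2A, RB1 and E2F1, which act downstream of cyclin D1, the MYC paralogs MYCN and MYCL, and MAX with its partners MXI1, MXD1, MXD4, MNT and MGA. At least 1 peak was found at 12 and 13 of the 18 in the BMAL1 lists and at 10 and 12 in the HIF2α lists, shCNT first. Over all protein-coding genes the shares with a peak were 50.1% and 65.2% for BMAL1 and 50.02% and 58.2% for HIF2α. Both HIF2α lists had a peak at 7 of the 18 and neither had one at 3. CCND1 and MYC-PVT1 also had HIF2α peaks in both. The share of all protein-coding genes with a peak in both lists was not computed. The MYC-PVT1 window was also longer, at 1052 kb against 606 to 896 kb for the 18 genes. CCND2 and CCND3 had 1 shCNT HIF2α peak each and no other, and MYCN had no peak in any list.

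Per Mb, the median of the 18 genes was 1.55 and 3.22 peaks for BMAL1 and 1.26 and 1.65 for HIF2α, so MYC-PVT1 was above the median in all 4 lists and CCND1 was close to it apart from shCNT BMAL1. MYC-PVT1 was the densest of these 20 windows in shBMAL1 BMAL1, at 13.3 per Mb against 6.55 at E2F1. In the other 3 lists the densest window was that of MNT (shCNT BMAL1, 8.10 per Mb), MXD1 (shCNT HIF2α, 12.4 per Mb) or MXI1 (shBMAL1 HIF2α, 10.3 per Mb). MXD1, MXI1 and MNT encode repressors that compete with MYC for MAX.

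**Figure D5:**
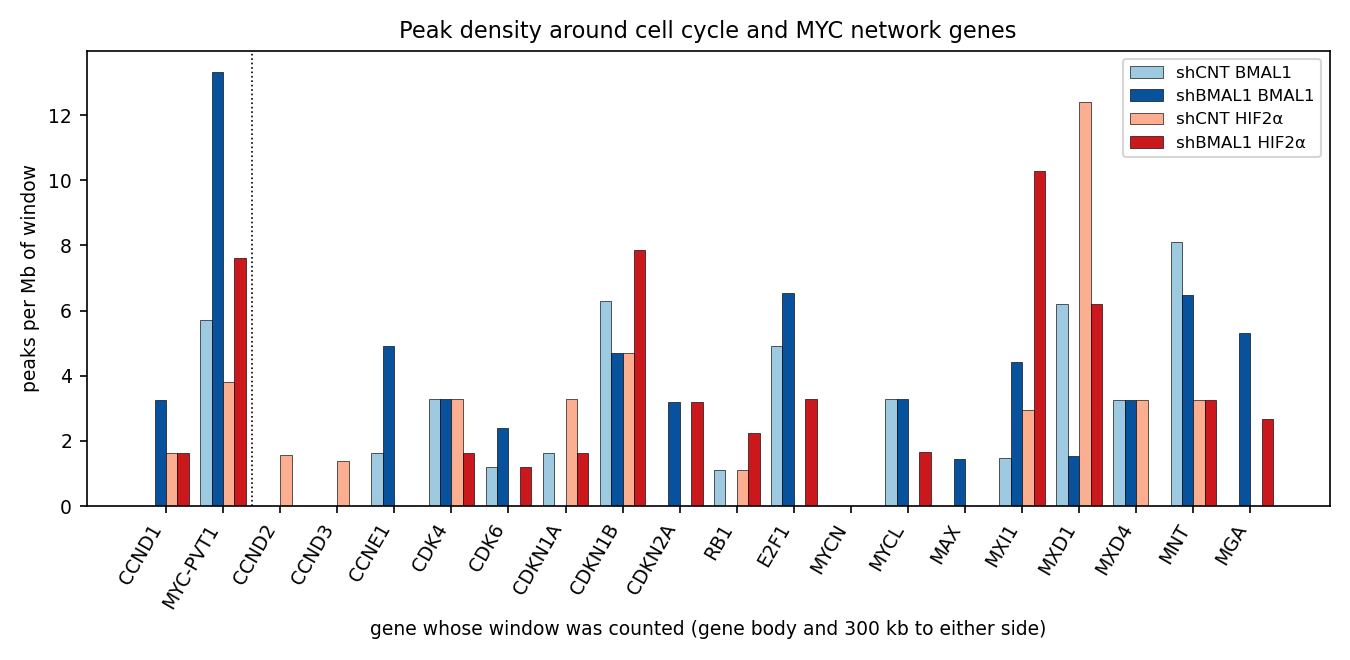
Peaks per Mb (vertical axis) in the windows of CCND1 and MYC-PVT1, left of the dotted line, and of 18 other cell cycle and MYC network genes, with 1 bar for each of the 4 lists. MYC-PVT1 has the highest shBMAL1 BMAL1 bar (13.3), and MXD1 the highest shCNT HIF2α bar (12.4).

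Beyond the edges of the windows the nearest further peak lay between 86.3 and 4729 kb away, depending on the list and the side. For HIF2α they lay 1034 kb before the CCND1 window under either shRNA and 347 kb (shCNT) and 280 kb (shBMAL1) after it. For BMAL1 under shBMAL1 a peak lay 86.3 kb before the CCND1 window. On the MYC-PVT1 side the nearest HIF2α peak before the window was 216 kb away under shCNT and 863 kb under shBMAL1, and the nearest peak of any list after it was 1221 kb away.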

How the data were processed

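A498 cells with shCNT or shBMAL1 were profiled by CUT&RUN, and groups follow the shRNA and the antibody that each title names. The members, motifs and gene lists were chosen with earlier results of these data known. Reads were aligned by the authors to hg19 (GRCh37) with Bowtie2 2.5.3, deduplicated with SAMtools 1.6 and sambamba, and peaks were called with MACS2 2.2.9.1 at a p-value limit of 1e-05 and a maximum gap of 400 bp, then cleared of blacklisted regions with bedtools 2.31.1. Versions are from the submitters' processing notes. Whether replicates were pooled, and which control was used, is not given in the sources used here.

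The deposited fold is a linear ratio from the authors' peak caller, (pileup + 1) / (local background + 1). Each peak's p-value and q-value were deposited as −log10, and the deposited score is the whole part of the −log10 p multiplied by a constant. They were used to describe and rank peaks within a list. Pileup and background were solved from fold and p, with a whole pileup recovered within 0.001 for 100% of peaks in each list. A percentile is the mean rank of a −log10 p within its list. Sites are peaks overlapping by at least 1 bp, and list shares carry Wilson 95% intervals.

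Genes were those of GENCODE release 44 mapped to GRCh37. Motifs were searched on both strands in 200 bp around summits, ACGTG or GCGTG being part of CACGTG and TACGTG where these occur. By the naming rule, peaks in 2 or more lists or the top 5% of a list were given in full, with each gene holding or nearest to a summit; the remaining genes were counted. Steps were tested on simulated data. Alternatives were flanks of 100 and 500 kb, a −log10 p of at least 8, lists of equal length, a pileup of at least 5, other overlap rules and other motif windows; a scaling by shared peaks was added after seeing the data. The 16 libraries without a list, IgG included, and signal tracks were not analysed here. Scripts ran in Python 3.11.15 with pysam 0.24.0, matplotlib 3.10.9, scipy 1.17.1, pandas 2.3.3 and numpy 2.4.6.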

Additional observations from a re-analysis of the deposited data

How the results depend on the processing

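Of 114 values recomputed for 34 results, 20 moved. The other 94 were counts within a factor of 1.5 of the reported one or ratios inside its counting interval, a wide range under which 3 of the 10 pileup ratios crossed 1 when scaled by shared peaks (BMAL1 at 141, 214 and 441 kb past the MYC start, at 0.778, 0.900 and 0.545). With a −log10 p of at least 8 in all lists, the CCND1 window held 1 shBMAL1 BMAL1 peak in place of 2, the MYC-PVT1 window 2 and 4 HIF2α peaks in place of 4 and 8, shCNT first, and 3 of the 4 remaining shCNT BMAL1 peaks of MYC-PVT1 were shared between shRNAs. HIF2α peaks of MYC-PVT1 with a BMAL1 peak then numbered 1 under shCNT (from 2) and 2 under shBMAL1 (from 6). Lists of equal length, a pileup of at least 5 and a flank of 100 kb each left 1 shBMAL1 BMAL1 peak around CCND1, and a flank of 500 kb gave 4. A flank of 100 kb left 0 HIF2α peaks around CCND1 under either shRNA, since the upstream site lies farther out. Lists of equal length, or summits within 200 bp, left 1 shCNT HIF2α peak of MYC-PVT1 with a BMAL1 peak.

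HRE cores at MYC-PVT1 depended on the width searched. Under shCNT 0 of 4 HIF2α peaks had a core in 100 bp, 2 in 400 bp and 2 in the whole peak, and under shBMAL1 1 of 8 in 100 bp and 5 in 400 bp. Scaling by shared peaks, chosen after seeing the data, moved the shCNT HIF2α peaks above the shBMAL1 limit from 0 to 1 of 1. No paired analysis was possible because the peak lists analysed here number 1 per group; for the same reason none was left out in turn, and single libraries were not used here. Pileups of 3 to 20 fragments limit what any ratio can show.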
